A study of Mus musculus with 6 samples.

Results

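The genes described here are 10 that visceral endoderm of the mouse yolk sac transcribes strongly: Afp, Ttr, Rbp4, Apoa1, Apoa2, Apoa4, Apob, Apoc2, Apom and Amn. They were read in mandibular arches of C57BL/6 mouse embryos at E10.5, on 3 arrays labelled Tbx1+/+ and 3 labelled Tbx1-/-. The members were chosen by gene symbol, as all probe sets that the platform annotation gives to 1 of these symbols. That gave 23 probe sets of 34958 with 1 gene, and 10 genes of 18194. The choice followed an earlier reading of the same arrays, in which Ttr was lower on the Tbx1-/- arrays and highest on replicate 2 of Tbx1+/+. The genotype difference and the array differences of these genes are therefore given as a description, and the limma calls on them, given once, support nothing.

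Tbx1 encodes a T-box transcription factor needed in the pharyngeal region. Arches of 3 embryos were pooled by genotype, and whether the 3 arrays of a genotype were hybridized with separate pools is not clear from the description, so the spread between arrays may in part be technical. For the Tbx1-/- arrays the values of Xist and Prl7a1, given below, differ too far for 1 common RNA. The 1 probe set of Tbx1 averaged 7.06 on the Tbx1+/+ arrays and 7.46 on the Tbx1-/- arrays (log2), and since the sources used here do not say which part of the gene was disrupted, this set does not check the labels, which are followed below. Values are log2 levels per probe set, and a difference of 1 is a doubling. A gene was tested when its brightest probe set exceeded 4 on at least 3 arrays, which held for 16074 genes and for all 10 members. The label of the tissue was checked with 10 genes of arch mesenchyme. All 10 were tested, Prrx1 read 12.98 to 13.16 and Twist1 read 12.32 to 12.44 over the 6 arrays.

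Visceral endoderm is the outer epithelium of the visceral yolk sac. It takes up maternal protein and lipid at its apical surface, repacks lipid into apolipoprotein-coated particles, and secretes plasma proteins to the embryo before the liver takes over. Afp is its best known secreted product. Ttr carries thyroid hormone and, bound to Rbp4, retinol. Amn, or amnionless, holds the receptor cubilin at the apical membrane and is not itself a plasma protein. None of these genes is particular to the yolk sac: liver and gut also express most of them, and choroid plexus is another known site of Ttr.

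Sequence upstream of the start is shown for members that lay more than 1 above the other arrays on replicate 2 of Tbx1+/+ (Afp and Apoa1, and Apob on 1 of its 2 probe sets only) and for members that did not (Apoc2, Amn), among those with 1 start in the table. The sequences are the 250 bases before the RefSeq start in build GRCm38.p6, read 5′ to 3′ on the gene's strand. Capitals mark a match, on either strand, to the letters of a motif. The TATA box was searched as TATAAA. For the forkhead factors of the FOXA group the letters were TGTTTAC, with TGTTTGC as a second form. A short site of the endoderm factor HNF1 was searched as GTTAAT. For the liver and fat factors of the C/EBP group the letters were TTGCNNAA. A short site shared by many nuclear receptors was searched as AGGTCA. For the GATA factors the letters were AGATAA. No matches overlapped in these windows. The windows lie at chr5:90490464-90490713 (plus strand, Afp), chr9:46228380-46228629 (plus strand, Apoa1), chr12:7977427-7977676 (plus strand, Apob), chr7:19677942-19678191 (minus strand, Apoc2) and chr12:111270846-111271095 (plus strand, Amn).
Afp: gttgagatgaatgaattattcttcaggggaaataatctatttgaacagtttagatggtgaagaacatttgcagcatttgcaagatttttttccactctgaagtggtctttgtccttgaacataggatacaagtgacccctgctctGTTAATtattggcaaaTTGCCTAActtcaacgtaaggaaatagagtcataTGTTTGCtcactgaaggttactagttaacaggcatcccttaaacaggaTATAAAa
Apoa1: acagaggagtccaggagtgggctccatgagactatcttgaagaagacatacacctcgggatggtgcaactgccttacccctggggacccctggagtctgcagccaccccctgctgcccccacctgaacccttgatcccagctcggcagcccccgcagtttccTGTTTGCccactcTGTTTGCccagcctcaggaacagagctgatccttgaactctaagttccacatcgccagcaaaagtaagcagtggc
Apob: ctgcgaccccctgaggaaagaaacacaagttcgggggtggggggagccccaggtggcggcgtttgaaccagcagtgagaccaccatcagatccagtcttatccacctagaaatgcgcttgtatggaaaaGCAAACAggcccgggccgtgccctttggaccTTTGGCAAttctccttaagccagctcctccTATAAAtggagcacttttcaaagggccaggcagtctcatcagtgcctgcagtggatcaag
Apoc2: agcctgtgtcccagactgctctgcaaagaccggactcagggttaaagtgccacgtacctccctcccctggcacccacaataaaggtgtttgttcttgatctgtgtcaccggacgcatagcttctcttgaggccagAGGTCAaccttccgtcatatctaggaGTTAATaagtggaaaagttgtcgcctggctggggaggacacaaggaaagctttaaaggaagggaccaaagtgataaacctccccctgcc
Amn: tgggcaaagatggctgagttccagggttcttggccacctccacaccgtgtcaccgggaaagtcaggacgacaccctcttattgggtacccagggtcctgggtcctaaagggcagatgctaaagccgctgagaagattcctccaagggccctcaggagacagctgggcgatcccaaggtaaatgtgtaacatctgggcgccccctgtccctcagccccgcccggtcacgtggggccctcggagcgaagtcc

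The FOXA letters, those of forkhead factors that act in endoderm, were in 5 of the 11 member windows and in 7.29% of all 32851 windows. The 5 were windows of Afp, Apoa1, Apoa2, Apob and Rbp4, among 9 members with an entry (all but Ttr). Apoa1 held the FOXA letters at positions -88 to -82 and -75 to -69 from the start, and Afp at -55 to -49. The TATA letters were in 4 of the 11 member windows, those of Afp, Apoa2, Apob and Rbp4, against 12.4% of all windows. The C/EBP letters were in 4 of the 11, of the same 4 genes, against 9.56%. Afp and Apoc2 held the HNF1 letters (6.43% of all windows), and Apoa2 and Apoc2 the nuclear receptor letters (14.0%). The GATA letters were in 0 of the 11 member windows and in 9.99% of all. Windows of Apoa4, Apom and Amn held none of the 6 motifs. A match of letters is a description and no evidence of binding. GC content of the member windows ran from 36.0% (Afp) to 70.8% (1 of the 2 Rbp4 starts), around a median of 52.4% for all windows.

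The arrays had nearly equal medians, between 6.08 and 6.15. Replicate 3 of Tbx1-/- stood apart: its array difference, an array minus the mean of the other 5, exceeded 1 for 249 of the 16074 tested genes, against 6 to 32 of them on any other array. Placental genes led there, with Prl7a1, a placental prolactin family member, at 13.28 and between 3.53 and 4.76 elsewhere. Xist, the RNA of the inactive X chromosome, was low on replicate 2 of Tbx1-/- alone, at 5.60 against 10.44 or above. The arrays labelled Tbx1-/- thus did not carry 1 common RNA.

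Transthyretin (Ttr) was lower on the Tbx1-/- arrays on all 4 of its probe sets. The brightest read 6.42, 8.32 and 7.42 on Tbx1+/+ replicates 1, 2 and 3, and 4.75, 6.10 and 5.98 on the Tbx1-/- replicates in the same order. The groups did not overlap, but the Tbx1+/+ arrays alone spanned 6.42 to 8.32, wider than the gap from their lowest value to any Tbx1-/- array. The means were 7.39 ± 0.95 (log2, SD, n = 3) and 5.61 ± 0.75 (SD, n = 3), a difference of -1.78 (SE 0.49), or 3.42-fold lower. By replicate number the Tbx1-/- array was lower by 1.67, 2.22 and 1.43.

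The pattern of Ttr was a graded one, with 1 array at each end. On its brightest set the replicates ranked 2, 3, 1 from high to low within both genotypes. On the sets 1451580_a_at and 1459737_s_at replicate 3 of Tbx1-/- lay above its replicate 2. Replicate 2 of Tbx1+/+ lay 2.19 above the mean of the other 5 arrays, the furthest of all 16074 tested genes on that array, and replicate 3 of Tbx1+/+ lay 1.10 above. That mean includes the 3 Tbx1-/- arrays and so holds part of the genotype difference. Replicate 2 of Tbx1+/+ lay 0.91 above the next highest array. The array differences of the Tbx1-/- replicates 1, 2 and 3 were -2.10, -0.48 and -0.62. Without replicate 2 of Tbx1+/+ the genotype difference was -1.31 (SE 0.46), and both remaining Tbx1+/+ arrays were above all 3 Tbx1-/- arrays. Without replicate 1 of Tbx1-/- it was -1.35, and without both of these arrays, an alternative chosen after seeing the data, it was -0.88. Those arrays differ in replicate number, so -0.88 does not compare arrays matched by number. Leaving out the ends of groups that do not overlap can only shrink the difference and cannot turn its sign.

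The other 3 Ttr probe sets kept the same ends. The set 1455913_x_at read 5.37, 7.27 and 6.22 on Tbx1+/+ and 3.40, 4.85 and 4.47 on Tbx1-/-. The set 1459737_s_at read 4.77, 7.40 and 6.06, and 3.80, 4.23 and 4.77. On both, replicate 1 of Tbx1-/- was under the level of 4. The set 1451580_a_at read 6.15, 7.25 and 6.38, and 5.63, 6.03 and 6.06, a difference of -0.69 against -2.05 and -1.81 on the sets just named. Suffixes x and s mark probe sets that can match more than 1 transcript, and the set with neither had the smallest difference. Without replicate 2 of Tbx1+/+ the 3 differences were -1.56, -1.15 and -0.36.

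Alpha-fetoprotein (Afp), a fetal albumin relative, ordered the arrays as Ttr did. Its brightest set read 7.53, 8.93 and 7.80 on Tbx1+/+ and 5.64, 7.35 and 6.85 on Tbx1-/-. Replicate 2 of Tbx1+/+ was again the highest and replicate 1 of Tbx1-/- the lowest, and the lowest Tbx1+/+ value lay only slightly over the highest Tbx1-/- value. The means were 8.09 ± 0.75 (SD, n = 3) and 6.61 ± 0.88 (SD, n = 3), a difference of -1.47 (SE 0.47), or 2.78-fold lower. It was -1.05 without replicate 2 of Tbx1+/+, -0.99 without replicate 1 of Tbx1-/- and -0.56 without both. The order of the 6 arrays on this set was that of the brightest Ttr set, as on 6 of the 23 member probe sets, that Ttr set included.

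Probe sets of Afp disagreed in size. The set 1416645_a_at, with no cross-matching suffix, had the widest range of all 23, from 4.50 on replicate 1 of Tbx1-/- to 9.21 on replicate 2 of Tbx1+/+. The set 1416646_at ran between the same arrays, from 4.86 to 8.29. The set 1436881_x_at ran from 4.97 to 5.96, highest on the same array, and 1436880_at lay between 3.70 and 4.09 on all 6 arrays. That last set was near the low end of the scale and showed no such order.

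Retinol binding protein 4 (Rbp4), the plasma partner of Ttr, was highest on replicate 2 of Tbx1+/+ by a smaller margin. Its 1 probe set read 6.10, 6.83 and 6.21 on Tbx1+/+ and 5.84, 5.99 and 6.04 on Tbx1-/-. The 5 arrays other than replicate 2 of Tbx1+/+ lay within 5.84 to 6.21, and that array lay 0.80 above their mean. The genotype difference was -0.43 (SE 0.19), and -0.20 without that array.

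**Figure D1:**
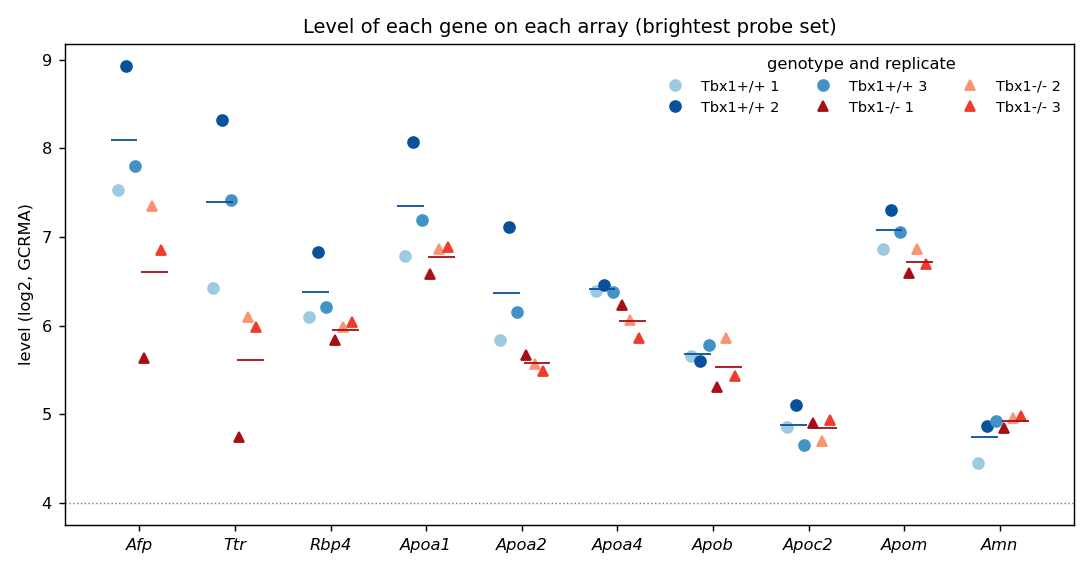
Level (log2) of the brightest probe set of each of the 10 genes on each array; circles are Tbx1+/+ arrays, triangles Tbx1-/- arrays, short lines the mean of each genotype (n = 3), and the dotted line the level of 4 used as the filter. Ttr and Afp reach 8.32 and 8.93 on replicate 2 of Tbx1+/+ and fall to 4.75 and 5.64 on replicate 1 of Tbx1-/-, while Apoc2 and Amn keep within 4.45 and 5.11.

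Of the apolipoproteins, Apoa1 and Apoa2 stood out on the same Tbx1+/+ array. Apoa1, the main protein of high density lipoprotein, read 6.79, 8.07 and 7.19 on Tbx1+/+ and 6.58, 6.87 and 6.89 on Tbx1-/-. On this brightest set the groups overlapped, since replicate 1 of Tbx1+/+ lay under replicates 2 and 3 of Tbx1-/-. The array difference of replicate 2 of Tbx1+/+ was 1.21 here and 0.90 to 1.26 on the 3 other Apoa1 sets. The genotype difference on the brightest set was -0.57 (SE 0.29), and it was -0.21 without that array. On the 3 other sets all Tbx1-/- arrays lay below all Tbx1+/+ arrays. Their differences were -0.74, -0.70 and -0.68, and -0.40, -0.51 and -0.39 without that array.

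Apoa2, the second protein of high density lipoprotein, read 5.84, 7.11 and 6.15 on Tbx1+/+ and 5.67, 5.57 and 5.49 on Tbx1-/-. The Tbx1-/- arrays lay close together and under all Tbx1+/+ arrays, and replicate 2 of Tbx1+/+ lay 1.36 above the mean of the others. The difference was -0.79 (SE 0.29), or -0.42 without that array. Here replicate 1 of Tbx1-/- was the highest of its genotype, unlike on Ttr and Afp.

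Apob, the core protein of lipid-rich particles, gave 2 readings. The brighter set read 5.66, 5.60 and 5.78 on Tbx1+/+ and 5.31, 5.86 and 5.43 on Tbx1-/-, with overlapping groups and a difference of -0.15 (SE 0.16). The set 1455593_at read 5.25, 6.34 and 5.80, and 5.04, 5.36 and 4.88, a difference of -0.70, or -0.43 without replicate 2 of Tbx1+/+. On the second set that array lay 1.07 above the others, and on the brighter one its difference was -0.01. Which set reads the transcript better cannot be told from these values.

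Apom, carried on high density lipoprotein, followed in a weaker form, with 6.86, 7.31 and 7.06 on Tbx1+/+ and 6.59, 6.86 and 6.70 on Tbx1-/-. Its difference was -0.36 (SE 0.14). Its dimmer set, 1419096_at, read 5.08, 5.28 and 4.74, and 4.71, 4.85 and 4.88, with overlapping groups and a difference of -0.22 (SE 0.16). Apoa4, a protein of chylomicrons, did not single out the array: it read 6.39, 6.46 and 6.38 on Tbx1+/+ and 6.23, 6.06 and 5.86 on Tbx1-/-. Its Tbx1+/+ values lay within 6.38 to 6.46, and its difference of -0.36 (SE 0.13) was nearly the same, -0.34, without replicate 2 of Tbx1+/+. Its dimmer set, 1436504_x_at, read 5.03, 5.24 and 5.33 on Tbx1+/+ and 5.03, 5.03 and 5.02 on Tbx1-/-, a smaller difference of -0.17 (SE 0.12), with replicate 3 of Tbx1+/+ the highest.

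Apoc2, the cofactor of lipoprotein lipase, and Amn showed no such pattern. Apoc2 read 4.86, 5.11 and 4.66 on Tbx1+/+ and 4.90, 4.70 and 4.94 on Tbx1-/-, with a difference of -0.03 (SE 0.15). Amn read 4.45, 4.87 and 4.93, and 4.85, 4.96 and 4.98, a difference of 0.18 (SE 0.15) towards higher Tbx1-/- values. Both lay below the median of every array, where differences are compressed.

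Replicate 2 of Tbx1+/+ was the highest array for 8 of the 10 genes, and for 19 of the 23 probe sets. Among all tested genes it was the highest for 25.3%, and among all probe sets with 1 gene for 21.2%. It lay more than 1 above the other arrays for 4 genes, Ttr, Afp, Apoa2 and Apoa1, against 0.0871% of all tested genes, and for 12 probe sets, against 0.0744% of all. Next under that step was Rbp4 at 0.80, and the lowest above it was Apoa1 at 1.21. The median array difference over the 10 genes was 0.64 on this array and 0.03 over all tested genes. On the other arrays the median over the 10 genes was -0.06 and 0.19 (Tbx1+/+ replicates 1 and 3) and -0.36, -0.20 and -0.22 (Tbx1-/- replicates 1, 2 and 3). Replicate 1 of Tbx1-/- was the lowest for 6 genes (19.8% of all tested genes) and 15 probe sets (18.1% of all), and it lay more than 1 below for Ttr and Afp (0.560% of all). Since earlier results on this array led to the choice of the genes, these shares describe the choice and support nothing further.

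**Figure D2:**
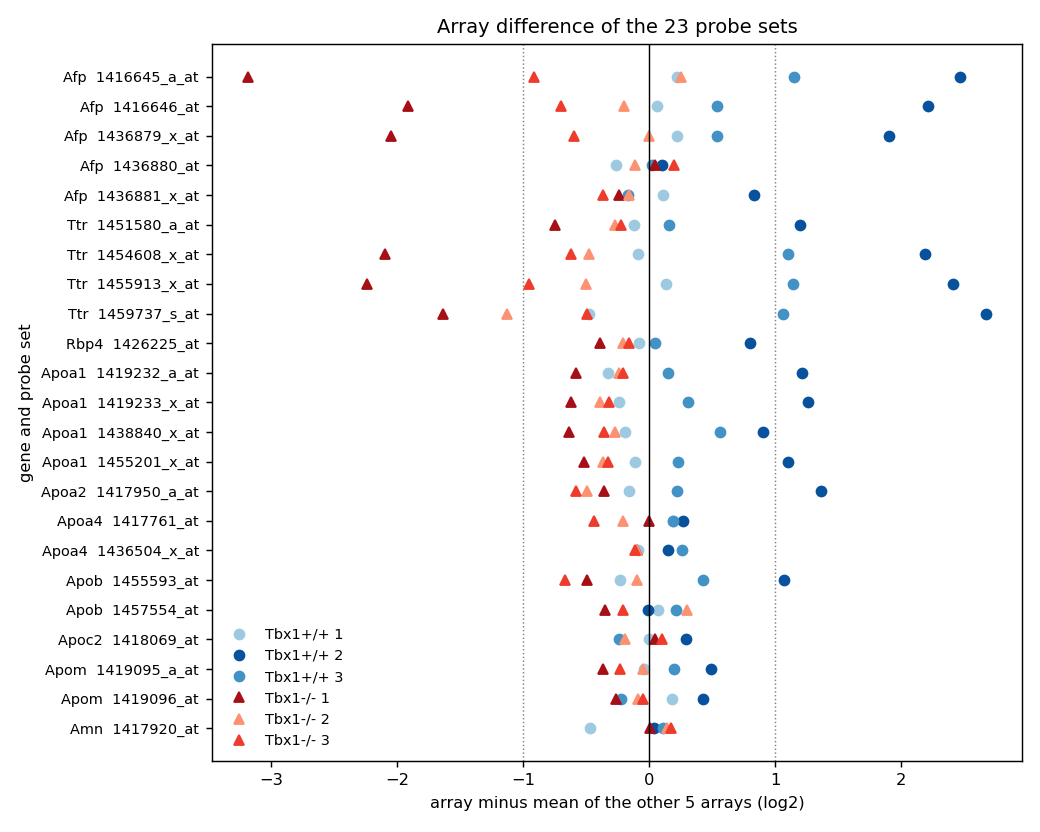
Array minus the mean of the other 5 arrays (log2) for all 23 probe sets, 1 row each; circles are Tbx1+/+ arrays, triangles Tbx1-/- arrays, and dotted lines mark differences of 1 either way. Replicate 2 of Tbx1+/+ lies furthest right on 19 sets and replicate 1 of Tbx1-/- furthest left on 15.

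In the genotype comparison 9 of the 10 genes had lower means on the Tbx1-/- arrays, against 52.7% of all tested genes, with a median difference of -0.39 against -0.01. For 6 genes the groups did not overlap with Tbx1-/- lower, against 3.25% of all tested genes. Without replicate 2 of Tbx1+/+ the median of the 10 was -0.23. In limma with Benjamini-Hochberg adjustment over all genes, 0 of the 10 passed 0.05 (5 were lower at an unadjusted p under 0.05, against 1.20% of all genes), and 0.0249% of all genes passed lower and 0.0124% higher. With the replicate number as a block 1 of the 10 passed lower, Ttr, against 0.0373% of all genes, and its SE was 0.17 in place of 0.49. These calls come from the contrast that led to the choice of the genes and are not read further.

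Other genes of the yolk sac and liver programme were listed from background knowledge of the tissue, with the result on Ttr known. In all, 45 tested genes of 5 lists were set beside the 10. Of these, 15 were highest on replicate 2 of Tbx1+/+ (33.3%, against 25.3% of all tested genes), 7 lay more than 0.5 above there (1.47% of all tested genes did) and 1 lay more than 1 above. Their median array difference there was 0.19, against 0.64 for the 10 and 0.03 for all tested genes. In the genotype comparison their median was -0.07, and 0 passed in limma. At an unadjusted p under 0.05 there were 2 lower and 2 higher genes.

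Among the 45 genes the largest array difference on replicate 2 of Tbx1+/+ was that of a plasma protein gene. Fgg, the gamma chain of fibrinogen, read 4.74, 6.24 and 5.52 on Tbx1+/+ and 4.74, 4.86 and 4.79 on Tbx1-/-. Only replicates 2 and 3 of Tbx1+/+ stood above an otherwise flat level, and the array difference on replicate 2 was 1.31. Fga, the alpha chain, read 4.90 there and 3.67 to 4.49 elsewhere, and Ambp, the precursor of the protease inhibitor bikunin, 4.99 and 4.32 to 4.54. Fgb, the beta chain, differed by 0.20 there. Alb, the main plasma protein of the later liver, was highest on replicate 1 of Tbx1-/- (6.04) and read 5.51 to 5.85 on the others. Of the 12 tested plasma protein genes 6 were highest on replicate 2 of Tbx1+/+, with a median difference of 0.20.

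The uptake apparatus of visceral endoderm was followed through the partners of Amn. Cubn, or cubilin, which Amn holds at the membrane, read 5.28, 6.01 and 5.19 on Tbx1+/+ and 5.32, 5.33 and 5.27 on Tbx1-/-. It lay flat within 5.19 to 5.33 except on replicate 2 of Tbx1+/+, 0.73 above the others. Lrp2, or megalin, which neural and other embryonic epithelia also express, differed by -0.22 on that array and was highest, 6.78, on replicate 1 of Tbx1-/-. Dab2, an endocytic adaptor, differed by 0.21 and Vil1, a protein of microvilli, by 0.21. Of the 7 tested genes 2 were highest on that array, and their median difference was 0.03.

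Further markers of visceral endoderm were mixed. S100g, a calcium binding protein, read 5.69, 6.41 and 6.50 on Tbx1+/+ and 4.88, 5.77 and 5.95 on Tbx1-/-, highest on replicate 3 of Tbx1+/+ and lowest on replicate 1 of Tbx1-/-. Tmprss2, an epithelial protease, differed by 0.65 on replicate 2 of Tbx1+/+, Muc13, an epithelial mucin, by 0.37, and Cited1, a transcriptional cofactor, by 0.27. Rhox5, a homeobox gene of extraembryonic tissue, went the other way: it read 9.40 on replicate 3 of Tbx1-/- and 6.03 to 6.27 elsewhere. The median over 9 tested markers was 0.27 on replicate 2 of Tbx1+/+, with 4 of the 9 highest there.

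Endoderm transcription factors gave a median of 0.17 on that array, with 3 of 9 highest there. Nr5a2, a nuclear receptor of endoderm and liver, read 8.26, 8.50 and 7.64 on Tbx1+/+ and 6.99, 7.55 and 7.35 on Tbx1-/-, 0.94 above on replicate 2 of Tbx1+/+. Its groups did not overlap, and its genotype difference was -0.84 (SE 0.23, adjusted p = 1.00 in limma). Sox17 and Gata6, also expressed in endothelium and mesoderm, had array differences of -0.19 and -0.36 there. Both went the other way between genotypes, with higher Tbx1-/- means, by 0.64 (SE 0.2) for Sox17 and 0.86 (SE 0.19) for Gata6. Over the 9 tested factors the median genotype difference was 0.05, and 0 passed in limma. Hnf4a, a regulator of many apolipoprotein genes that is named after its values were seen, lay within 5.63 and 5.96 on all 6 arrays. Other lipoprotein genes showed little: of 8 tested, 0 were highest on that array. Their differences there ran from -0.14 for Mttp, which loads lipid onto Apob, to 0.27 for Fabp1, a fatty acid binding protein. The list mixes bright genes such as Pltp (mean level 10.88) with dim ones such as Fabp1 (4.46), and neither kind could readily show a small addition.

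**Figure D3:**
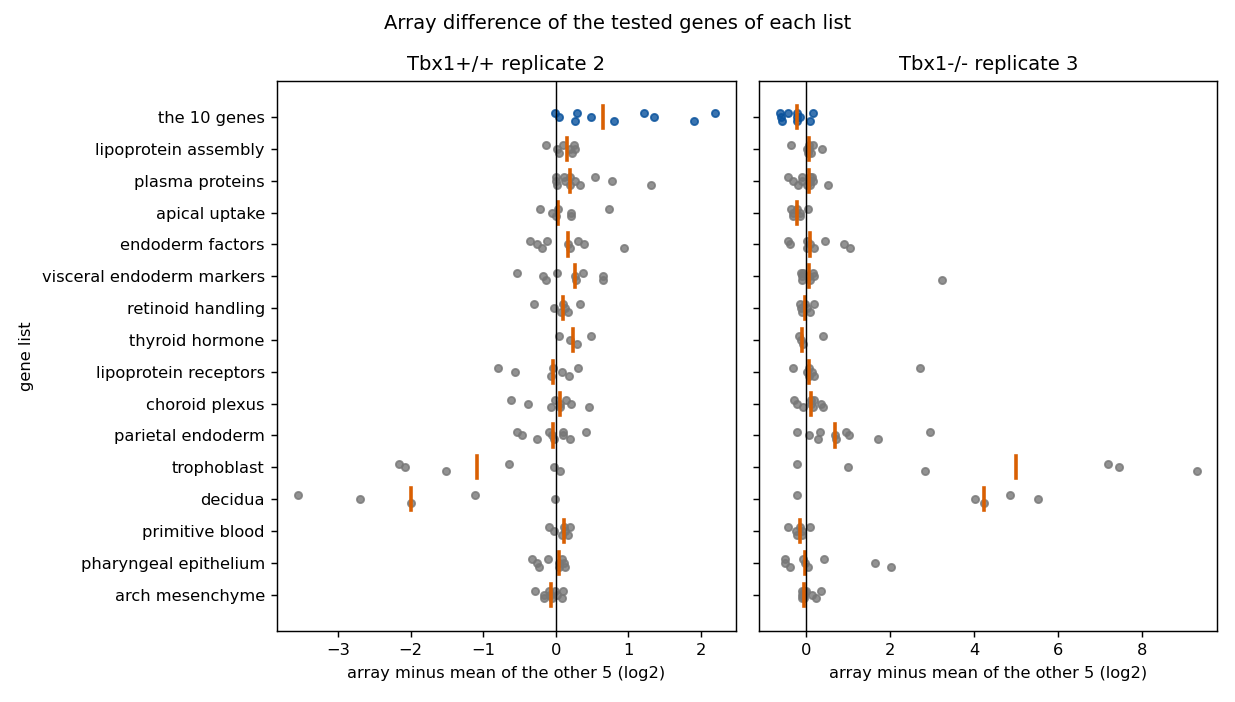
Array minus the mean of the other 5 arrays (log2) for the tested genes of each list, on Tbx1+/+ replicate 2 (left) and Tbx1-/- replicate 3 (right, with a wider axis); each point is a gene and each bar a list's median. On the left the 10 genes have a median of 0.64 and the trophoblast and decidua lists have medians of -1.08 and -1.99, against a mean that includes Tbx1-/- replicate 3; on the right trophoblast genes reach 9.30 and the 10 genes have a median of -0.22.

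Genes that receive or use what the members carry differed less on that array than Ttr or Afp. Of the retinoid genes, Stra6, the cell surface receptor of Rbp4, differed there by 0.33 and was highest on replicate 1 of Tbx1+/+. The cellular retinoic acid binding proteins Crabp1 and Crabp2 differed by 0.07 and 0.13. Of the 7 tested retinoid genes 0 were highest there and 0 passed between genotypes in limma (0 at an unadjusted p under 0.05). Of the 4 tested thyroid hormone genes 2 were highest there, Thra, a receptor, by an array difference of 0.29 and Dio2, an activating deiodinase, by 0.48. The median of the 4 was 0.24, against 0.64 for the secretory genes, with 0 of 4 passing in limma (0 at an unadjusted p under 0.05). Among 7 lipoprotein receptors and efflux genes the median was -0.04 and 1 was highest there, Sort1, a sorting receptor (0.30), named after its values were seen. Vldlr, a lipoprotein receptor, read 9.30 to 9.94 on Tbx1+/+ and 10.08 to 10.61 on Tbx1-/-. Its difference of 0.72 (SE 0.19) did not pass (adjusted p = 1.00 in limma).

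Markers of tissues that could travel with a dissected arch were read on the same arrays. Choroid plexus and roof plate, another known site of Ttr, gave a median of 0.06 on replicate 2 of Tbx1+/+ over 9 tested genes. The differences ran from -0.62 for Otx2 to 0.46 for Folr1, a folate receptor. The summed level of the list, the log2 of the sum of its linear levels, lay within 10.62 and 10.75 on all 6 arrays. Sostdc1 and Clic6, with mean levels of 9.69 and 8.61, make up most of that sum. It therefore says little on dimmer markers such as Folr1, with a mean level of 4.69. Primitive blood, which forms in yolk sac blood islands, gave a median of 0.11 there, and the embryonic globin Hbb-y lay within 13.64 and 13.95 throughout. A globin this bright on every array could hardly show a small addition. Parietal endoderm, the other endoderm of the yolk sac, gave -0.04 there and 0.70 on replicate 3 of Tbx1-/-. Trophoblast and decidua genes were not raised on replicate 2 of Tbx1+/+: Prl4a1, a placental prolactin family member, read 5.26 there, its lowest value, and Gzmg, a granzyme of uterine natural killer cells, 3.24, also its lowest.

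The array that carried placental transcript did not carry more of the 10 genes. On replicate 3 of Tbx1-/- the summed level of the 10 trophoblast genes on the platform was 14.78, against 9.32 to 9.61 elsewhere, while that of the 10 secretory genes was 9.40, against 10.72 on replicate 2 of Tbx1+/+ and 9.11 to 9.98 on the other arrays. Decidual genes were highest on replicate 3 of Tbx1-/- (summed level 12.34) and next on its replicate 2 (9.76), with 8.46 to 8.95 elsewhere. In a bulk sample a greater number of cells of a type and more RNA per cell cannot be told apart. The part of yolk sac tissue in the level of these genes was not tested.

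By the array difference, genes of the muscle lineage were also among those furthest above on that Tbx1+/+ array. That measure contains part of the genotype difference, so a gene lower on the Tbx1-/- arrays scores high there even where the Tbx1+/+ arrays are alike. Of the 14 tested genes more than 1 above on replicate 2 of Tbx1+/+, 4 were among the 10 secretory genes. Next to Ttr came Pcdh8, a protocadherin of mesoderm, at 6.18, 7.00 and 6.50 on Tbx1+/+ and 3.04, 4.86 and 4.65 on Tbx1-/-. Myf5, a determination factor of skeletal muscle, read 7.58, 7.75 and 7.51, and 4.71, 5.91 and 5.22. Actc1, an actin of heart and early muscle, read 6.41, 7.69 and 6.44, and 5.87, 6.78 and 5.30. Myf5 and Ttr differed in form: the 3 Tbx1+/+ values of Myf5 spanned 7.51 to 7.75 and those of Ttr 6.42 to 8.32. Of the 14 genes 8 had all Tbx1-/- arrays below the Tbx1+/+ arrays, against 3.25% of all tested genes. Since these genes were taken for a high Tbx1+/+ array, the choice favours such an order and the share is not read further.

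**Figure D4:**
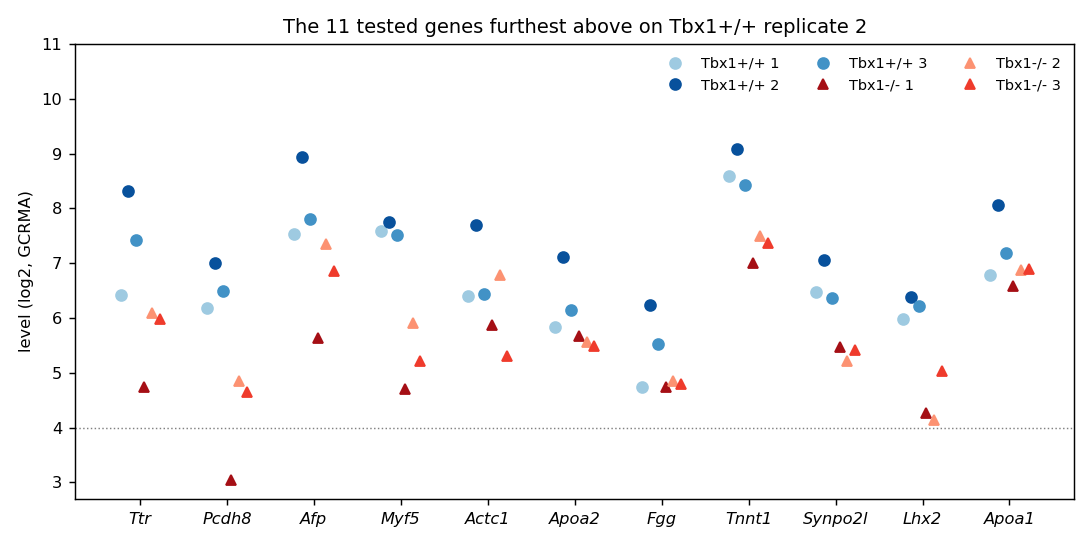
Level (log2) on each array of the 11 tested genes furthest above the other arrays on Tbx1+/+ replicate 2, from left to right in that order; circles are Tbx1+/+ arrays, triangles Tbx1-/- arrays, and the dotted line is the level of 4. All 11 are highest on that array, where the Tbx1+/+ values of Ttr run from 6.42 to 8.32 and those of Myf5 from 7.51 to 7.75.

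The genes whose profile over the 6 arrays was most like that of the brightest Ttr set were sought among 670 that ranged over at least 1. The correlations are a description over only 6 arrays, which hold both genotypes. Aldh1a1, a retinaldehyde dehydrogenase, was first (Pearson r = 0.985) and Pax7, a factor of muscle progenitors and neural crest, second (0.984), at levels of 3.92 to 5.43 and 3.71 to 5.21. Afp came next (0.971). Odf4 (0.962), Pcdh8 (0.945), Creg2 (0.941), Myod1, a muscle determination factor (0.927), S100g (0.912), Sim2, a bHLH-PAS factor (0.911), and Apoa1 (0.909) followed. The 10 most alike thus held 2 further members of the set and 1 more marker of visceral endoderm. They also held Myod1 of the muscle lineage, and Pax7 of muscle progenitors and neural crest.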

How the data were processed

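Gene expression was measured on 6 arrays (an Affymetrix mouse genome array, per the labels' protocols) after amplification from 100 ng of total RNA. The authors deposited log2 expression values per probe set, made with GCRMA per the submitters' processing notes (version not given in the sources used here). The log2 scale was read from the values, 1.95 to 15.11. GCRMA equalizes arrays, so a shift of most genes would be removed, and compresses differences near background. The platform annotation named 1 gene for 34958 of 45101 probe sets. Each gene was represented by the probe set with the highest mean, and 16074 of 18194 genes exceeded 4 on at least 3 arrays. Genotypes were compared with limma 3.58.1 (lmFit, eBayes with an intensity trend) in R 4.3.3, Benjamini-Hochberg adjusted over all genes with a threshold of 0.05, and the step was tested on simulated data. An array difference is an array minus the mean of the other 5. On a Tbx1+/+ array that mean includes all 3 Tbx1-/- arrays, so the value contains part of any genotype difference.

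The members and all gene lists were chosen with earlier results of these data known. A rule set which genes could be named: all members, in each list the 4 brightest and the 4 with the largest array difference on Tbx1+/+ replicate 2, the 10 furthest above there, and the 10 most correlated with Ttr. Not all genes that the rule allows are named, and the choice among them was made with their values known. Any other gene was also picked with its values known, as the text says. Tbx1 and Xist are named as checks. No 2 arrays of the same genotype held identical values throughout. Same-numbered arrays of both genotypes deviated together from their genotype means (correlations 0.261, 0.13 and 0.135, other pairs -0.195 to 0.065), so a fit with the replicate number as a block was also made. Upstream sequences are those of RefSeq starts (GRCm38.p6). The set of sequences used here covered 9 of the 10 members, all but Ttr. Array number limits the precision.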

Additional observations from a re-analysis of the deposited data

How the results depend on the processing

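The median array difference of the 10 genes on Tbx1+/+ replicate 2 stayed between 0.49 and 0.66 under the alternatives run, except that it was 1.07 over all 23 probe sets, chosen after seeing the data, where genes with several sets count more. Their median genotype difference was -0.39, between -0.52 and -0.23 with 1 array left out, and -0.24 and -0.16 without Tbx1+/+ replicate 2 together with Tbx1-/- replicate 3 or 1. Of 150 planned values for single members, 1 moved by more than the spread between replicates: Apob, -0.42 with the mean of its probe sets. That spread includes Tbx1+/+ replicate 2, so it is a wide measure for leaving that array out. Without it Apoa1, by its brightest set, went from -0.57 to -0.21 and Rbp4 from -0.43 to -0.20, and neither counted as moved. With the alternatives that were not planned, 8 values moved in all, that Apob value included. Among the others were Ttr (-0.88) and Afp (-0.56) without Tbx1+/+ replicate 2 and Tbx1-/- replicate 1. Ttr on the set 1451580_a_at (-0.69) also moved. Counts over all genes, 2 higher and 4 lower, are thin. They were 0 and 2 with no filter, with dim values raised to 4 and with no intensity trend, 0 and 0 with the mean over probe sets, 1 higher after quantile normalization, 4 higher and 6 lower with the replicate block, 5 and 5 without Tbx1+/+ replicate 2 and Tbx1-/- replicate 3, and 0 and 0 without Tbx1+/+ replicate 2 and Tbx1-/- replicate 1. With 1 array left out they ran from 0 to 14 higher and 0 to 8 lower. The cause was not tested. Of the 10 genes, the block changed the call of Ttr alone. Amn, Apoc2 and the dim Afp set lie near background, which limits what they can show.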
